A study of Mus musculus with 16 samples.

Results

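The cells described are the natural killer (NK) cells of MC38 tumors. They were chosen by raw counts of unique molecular identifiers (UMIs), each of which marks a captured RNA molecule. A barcode was taken with at least 1 UMI of Ncr1, Klrb1c and Klre1 together, 0 UMIs of Cd3e, Cd3d and Cd3g, 0 of Cd8a and Cd8b1, at most 1 of C1qa, C1qb and C1qc, and at most 3 of Lyz2. This gave 616 of the 9083 barcodes of the 4 tumor CD45+ libraries, against 37609 barcodes in all 16 libraries of the series. Of these, 614 passed a filter of at least 200 genes and at most 20% mitochondrial UMIs.

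*Aire*+/+ mice and their *Aire*-/- littermates, on the C57BL/6 strain and 8 weeks old when bought, were implanted with MC38, a mouse colon adenocarcinoma line. They received anti-PD1 or an isotype control antibody at 5 mg per kg, and tumors and spleens were taken on day 19. Tumors of 4 to 6 mice were pooled for each genotype and treatment, spleens were pooled too, and sorted CD45+ cells of each tissue and condition gave 1 library. The spread between mice therefore cannot be seen, and no test between conditions was run. Values given 4 at a time begin with the *Aire*+/+ mice, isotype before anti-PD1, and go on to the *Aire*-/- mice in the same order of treatments.

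NK cells are lymphocytes without rearranged antigen receptors that kill stressed, infected or transformed cells. They read a balance of activating and inhibitory receptors, many of which bind MHC class I or its relatives, and kill by releasing perforin and granzymes or by death ligands. They also secrete interferon gamma and chemokines that draw dendritic cells and T cells, and their numbers and function depend on cytokines such as IL-15.

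The NK cells numbered 103, 128, 146 and 237, with medians of 9489, 8785, 8957.5 and 8963 UMIs and of 2501, 2336, 2509.5 and 2440 genes per cell. Depth was thus alike in the 4 conditions. Eomes, a transcription factor of NK cells that took no part in the choice, had 211, 189, 211 and 213 CPM (UMIs of the gene per 1000000 UMIs of the same cells). In CD8 T cells of the same tumors it had 19.97, 29.8, 12.2 and 18.7. These were barcodes with CD3 and CD8 UMIs and 0 UMIs of Ncr1, Klrb1c and Klre1. They also met the limits set for NK cells on C1qa, C1qb, C1qc and Lyz2. CD8 T cells with RNA of the NK genes were thus left out of this comparison. The NK cells were above the CD8 T cells in every library. A UMI of Eomes was found in 68.9%, 74.2%, 80.8% and 76.4% of the NK cells and in 0.493%, 0%, 0.348% and 0.866% of the macrophages, which should lack it. The macrophages were most, but not all, of the barcodes with at least 5 UMIs of C1qa, C1qb and C1qc. Those with a UMI of Ncr1, Klrb1c or Klre1 were left out, which also leaves out macrophage barcodes that carried RNA of these NK genes. The macrophages were deeper, with medians of 14572.5, 14615.5, 14132.5 and 11356 UMIs, so that these low shares did not come with fewer UMIs. After every cell was thinned to 3000 UMIs, 50.5%, 41.4%, 48.6% and 50.2% of the NK cells still had Eomes.

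At the edge of the choice, 7, 5, 3 and 6 barcodes had exactly 1 UMI of the 3 NK genes, and Eomes was seen in 28.6%, 20%, 33.3% and 33.3% of them. Just outside, with 0 UMIs of the 3 genes and all other conditions met, lay 300, 209, 171 and 131 barcodes, of which 0.333%, 0.478%, 0% and 0% had Eomes. Another 7, 7, 10 and 34 barcodes were left out for 1 UMI of CD3 genes, and 100%, 71.4%, 100% and 70.6% of those had Eomes. Pairs of tumor CD45+ libraries shared between 3 and 14 barcodes, and 1 NK barcode was among them. Aire had 0 UMIs in the NK cells, so that genotype could not be read from it.

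Markers of other cell types differed in how much they were seen. Of the 6 macrophage markers, all 6 were seen in each library, with 81, 23, 25 and 29 UMIs summed over the list. In the *Aire*+/+ isotype library 66 of the 81 lay in 1 barcode, mostly as Apoe. Of the 5 dendritic cell markers, 3, 4, 2 and 4 were seen, with 116, 383, 54 and 397 UMIs, most of them Fscn1, Fscn1, Ccr7 and Ccr7. The fullest barcode held 87, 226, 19 and 128 of these, and Xcr1 was at 0 in all 4 libraries. Of the 4 B cell markers, 1, 0, 0 and 4 were seen, with 2, 0, 0 and 24 UMIs, led by Cd79b and Cd79a. Of the 4 mast cell and basophil markers, 1, 1, 1 and 2 were seen, with 6, 1, 1 and 47 UMIs, mostly Mcpt8, of which 37 lay in 1 barcode of the last library. All 3 neutrophil markers were at 0. Of the 4 MC38 markers, 2, 1, 1 and 1 were seen, with 5, 9, 6 and 17 UMIs, mostly Epcam, and Krt8 and Krt19 were at 0 in every library. The ILC3 markers summed to 0, 0, 0 and 1 UMIs. ILC1 markers summed to 183, 201, 190 and 253 UMIs, most of them Itga1 or Tnfsf10, which NK cells can also express. No doublets were removed.

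Some lists were not scarce, each through a few genes. Of the 4 monocyte markers, 3, 3, 3 and 2 were seen, with 389, 613, 839 and 1234 UMIs, most of them Ly6c2, and 18, 23, 24 and 39 barcodes held 5 or more. Chil3 was at 0. The plasmacytoid dendritic cell list had 294, 556, 534 and 762 UMIs, all of them Bst2, with Siglech at 0. The CD4 T cell list had 172, 247, 305 and 501, mostly Cd28 or Icos, with Cd4 at 0. The ILC2 list had 120, 152, 132 and 252, mostly Gata3, with Il1rl1 at 0, and the endothelial list 102, 73, 113 and 306, mostly Pecam1, with Cdh5 at 0. Whether these UMIs came from NK cells was not tested. Some values below leave out barcodes with other cell types' markers, by a part of these markers only. This kept 99, 122, 143 and 225 of the tumor NK cells. Most barcodes with 5 or more UMIs of the monocyte or the plasmacytoid dendritic cell list thus stayed in.

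NK cells were the smallest share of the infiltrate in *Aire*+/+ isotype tumors and the largest in *Aire*-/- anti-PD1 tumors. They made up 3.52% (95% interval 2.88 to 4.25), 5.80% (4.86 to 6.85), 7.87% (6.68 to 9.19) and 11.4% (10.1 to 12.9) of the CD45+ cells. The 4 shares stood in that order from low to high, and only those of *Aire*+/+ anti-PD1 and *Aire*-/- isotype tumors had intervals that touched. Between genotypes the share was 1.97 times as high (1.58 to 2.46) in *Aire*-/- anti-PD1 tumors and 2.24 times as high (1.73 to 2.91) in *Aire*-/- isotype tumors. Between treatments it was 1.65 times as high (1.26 to 2.16) with anti-PD1 in *Aire*+/+ mice and 1.45 times as high (1.18 to 1.80) in *Aire*-/- mice. In the spleens the same choice of barcodes gave 4.06% (3.25 to 4.99), 2.39% (1.78 to 3.14), 2.72% (2.05 to 3.52) and 2.30% (1.74 to 2.98), with the highest share in the *Aire*+/+ isotype spleen.

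The tumor shares depend on what else the infiltrate held. Macrophages numbered 1216, 810, 574 and 231, fewest where NK cells were most. Every barcode with at least 5 UMIs of C1qa, C1qb and C1qc was then taken out of the total, slightly more barcodes than these macrophages. Of the 1708, 1391, 1270 and 1833 cells left, NK cells made up 6.03% (4.95 to 7.27), 9.20% (7.73 to 10.8), 11.5% (9.79 to 13.4) and 12.9% (11.4 to 14.6). The order of the conditions stayed. The genotype ratio became 1.41 (1.13 to 1.76) with anti-PD1 and 1.91 (1.47 to 2.48) with isotype, and the treatment ratio 1.53 (1.17 to 1.998) in *Aire*+/+ and 1.12 (0.911 to 1.39) in *Aire*-/- mice, whose interval includes no difference. There were 1.23, 1.24, 1.49 and 0.593 NK cells per CD8 T cell of the choice above, so that in *Aire*-/- anti-PD1 tumors CD8 T cells outnumbered NK cells. That choice is narrow. In the sorted CD8+ libraries of the same tumors it kept only 1190, 834, 787 and 1142 of 2684, 2221, 1858 and 2212 cells. Whether NK cells outnumbered all CD8 T cells in the other tumors thus cannot be read from these ratios. All these intervals cover counting error only.

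**Figure D1:**
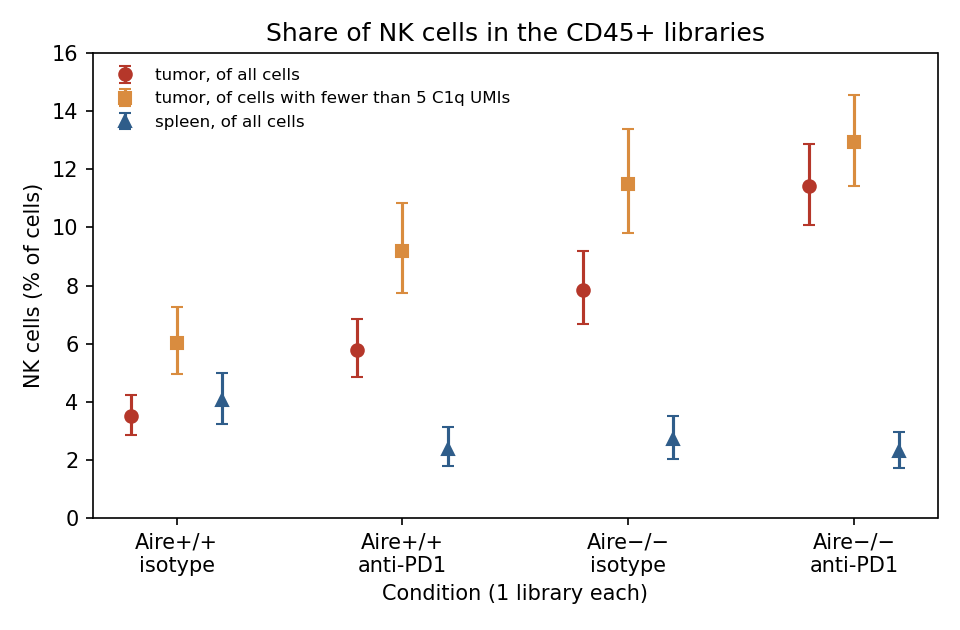
NK cells as a percentage of the CD45+ cells of each tumor and spleen library, with 95% counting intervals. The tumor share climbs from 3.52% in *Aire*+/+ isotype to 11.4% in *Aire*-/- anti-PD1 tumors, while the splenic shares stay between 2.30% and 4.06%.

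Granzymes were the leading transcripts of the tumor NK cells. By number of UMIs, not scaled by gene length, Gzmc ranked 2, Gzmb 7 and Gzma 10 among all genes, the others of the first 10 being Rn45s, Tmsb10, Tmsb4x, Actb, Eef1a1, Actg1 and Fau. Granzymes are serine proteases that perforin lets into the target cell. The 9 granzyme genes of the list took 3.46%, 2.98%, 3.05% and 3.16% of all UMIs of the NK cells, 0.735%, 0.413%, 0.450% and 0.608% of those of the CD8 T cells and 0.00564%, 0.00189%, 0.0103% and 0.0262% of those of the macrophages. NK cells were above both other types in every tumor. Macrophage and CD8 T barcodes with UMIs of Ncr1, Klrb1c or Klre1 had been left out. The macrophage values thus do not measure how much granzyme RNA other cells carried, which was not tested.

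Gzmc had 21567, 19506, 15536 and 14516 CPM in the NK cells. It was higher in both *Aire*+/+ than in both *Aire*-/- libraries. Gzma had 4053, 3972, 6308 and 6234, and here both *Aire*-/- libraries were higher. Gzmb, the best studied trigger of apoptosis among them, had 5573, 4099.7, 6899 and 6892, in the same order of genotypes as Gzma. Gzmd had 1261, 1158, 1084 and 1934, and Gzme had 1093, 728, 524 and 1069.9. Gzmf had 700.0, 266, 174 and 928, and Gzmg 320.2, 50.3, 15.4 and 54.5. These last genes did not follow genotype or treatment. Gzmf was highest in the *Aire*-/- anti-PD1 and Gzmg in the *Aire*+/+ isotype library. Only some cells held them, with Gzmd found in 22, 23, 30 and 37 of the NK cells and Gzmf in 16, 18, 18 and 32. Without barcodes with other cell types' markers the *Aire*-/- isotype value of Gzmf went from 174 to 89.9. Gzmb, Gzmc, Gzmd, Gzme, Gzmf and Gzmg lie side by side within 144.7 kb of chromosome 14 (GRCm38), and Gzma lies on chromosome 13. Prf1, which encodes perforin, had 1113, 754, 947 and 1183.

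Tumor NK cells differed widely from NK cells of the spleens. They held granzymes of which splenic NK cells had few UMIs or none. Most tested genes of glycolysis and hypoxia, of the interferon response and of the immediate early list were higher. Most tested genes of the maturation list, which mixes early and late stages, were lower. Splenic NK cells were taken by the same choice and numbered 85, 50, 55 and 55, with medians of 3724, 4007, 4358 and 4360 UMIs. UMIs were summed per library and tested with edgeR's quasi-likelihood fit, 4 tumor against 4 spleen libraries with condition as a block. Of 8166 genes tested, 1679 (20.6%) were higher and 1358 (16.6%) lower in the tumor at an adjusted p under 0.05. The median log2 fold change over all genes was -0.03, and the same with genes at 0 in one tissue set to a floor of 3 UMIs. The fit scales libraries by TMM, which placed its log2 fold changes 0.39 above those of CPM. On the latter scale, 1092 of the genes called higher and 1331 of those called lower went the same way in 4 of 4 conditions. Tissue came with more than 1 difference, since tumors were dissociated by enzymes and spleens mechanically and tumor NK cells were deeper. These cannot be told apart from tissue. With every barcode thinned to 3000 UMIs before the choice, 1459 genes of 4401 tested passed, and without the condition block 2909 of 7126.

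Of 17 genes of cytotoxic granules and death ligands that were tested, 11 rose and 2 fell, with a median log2 fold change of 1.80 against -0.03 for all genes. Gzmc had 5.65, 8.64, 0 and 61.8 CPM in the splenic NK cells, and its lowest tumor value was 14516. Every tumor library was far above every spleen. The pooled ratio was 929-fold (log2 fold change 10.29, adjusted p = 2.99e-14, higher in 4 of 4 conditions). Of the splenic UMIs, 17 of 21 lay in 1 barcode of the *Aire*-/- anti-PD1 library, and the log2 ratios by condition were 11.90, 11.14, 10.53 (a lower bound, as that spleen had 0) and 7.88. Gzmd, Gzme, Gzmf and Gzmg had 0 UMIs in all 4 spleens. Against a floor of 3 UMIs they were at least 559-fold, 336-fold, 222-fold and 35.3-fold higher in the tumor (adjusted p = 9.69e-14, 7.03e-13, 7.36e-12 and 5.67e-09). The bound for Gzmg rested mostly on the *Aire*+/+ isotype library, with 462 of 743 UMIs, 180 of them in 1 barcode, and its log2 bounds by condition were 5.24, 1.96, 0.55 and 2.32. Gzmb had 758, 653, 626 and 818 in the spleens and rose by 3.41 on the log2 scale (adjusted p = 9.69e-14). Gzma went the other way. It had 12768, 10765, 10723 and 14510.1 in the spleens, above every tumor, and fell by 0.88 on the log2 scale (adjusted p = 2.24e-06). Prf1 had 942, 657, 710.5 and 916 in the spleens, a range that overlaps that of the tumors (log2 fold change 0.69, adjusted p = 6.85e-06, higher in 4 of 4 conditions). Srgn, whose product serglycin packs the granules, rose by 2.04, and Serpinb9, which protects killer cells from their own granzyme B, by 1.80. Nkg7 fell by 0.39. Fasl, at 139, 177, 173 and 169 in tumors and 235, 255, 234 and 291 in spleens, did not pass (adjusted p = 0.125).

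**Figure D2:**
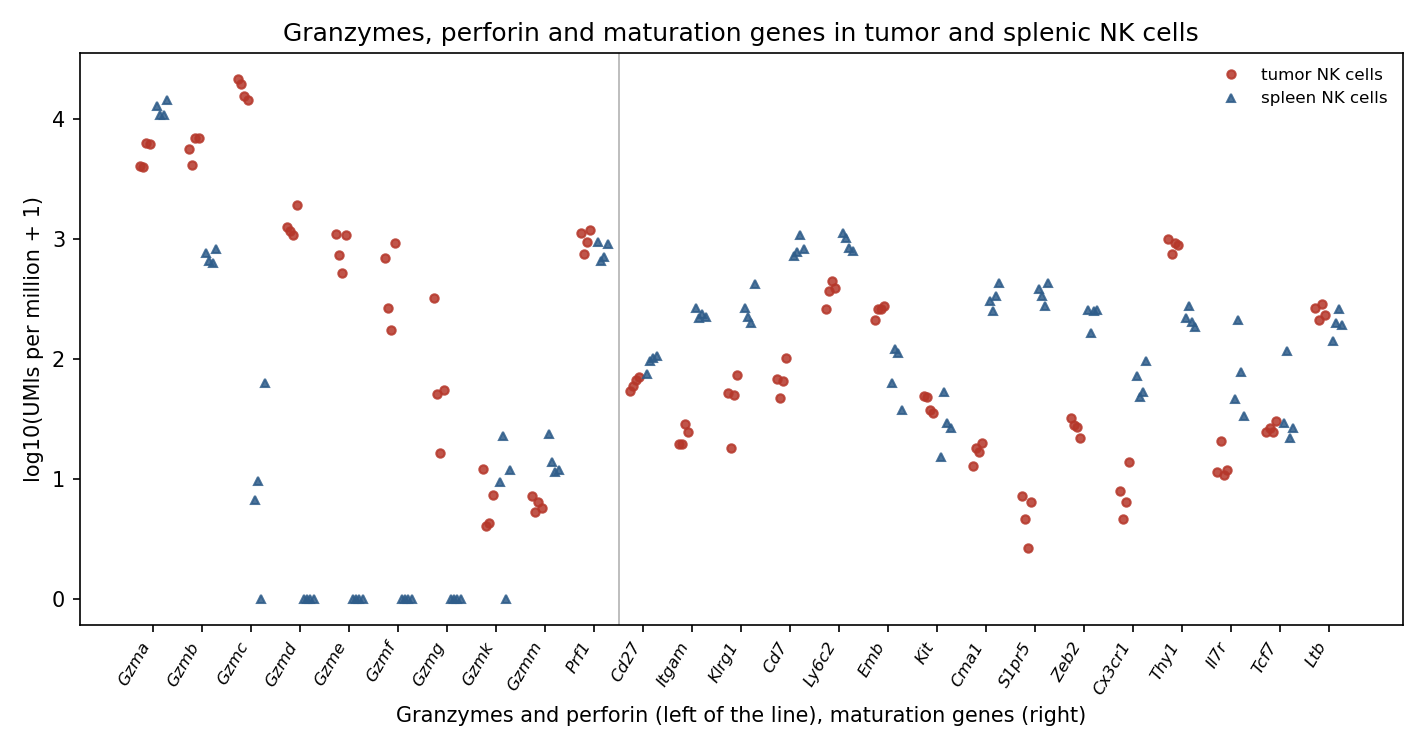
Granzyme and perforin genes (left) and genes of NK cell maturation (right) in tumor and splenic NK cells, as log10 of CPM plus 1 in each of the 8 libraries. Gzmd, Gzme, Gzmf and Gzmg are at 0 in every spleen, Gzma is higher in the spleens, and S1pr5, Cma1 and Itgam are far lower in the tumors.

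Inhibitory receptors moved both ways. Of 15 tested, 8 rose and 6 fell, with a median of 0.82. Ctla4 had 76.9, 73.6, 107 and 123 CPM in the tumor NK cells and 0 in all spleens, at least 38.6-fold higher (adjusted p = 7.93e-09). Ctla4 is better known from T cells, and CD8 T cells of the same tumors had 661, 553, 548 and 606. The NK cells lay between these and the macrophages, at 16.5, 14.9, 23.4 and 33.7. Lilrb4a, an inhibitory receptor best known from myeloid cells, had 219.7, 228, 245 and 291 in tumors and 5.65, 0, 3.50 and 7.27 in spleens (log2 fold change 6.16, adjusted p = 9.9e-12). Macrophages had more, with 762, 669, 839 and 706. Pdcd1, which encodes the target of the antibody, had 28.4, 58.3, 38.4 and 40.1 in tumors and 0, 17.3, 0 and 0 in spleens (log2 fold change 3.85, adjusted p = 1.18e-05). All tumors were above all spleens, and tumor CD8 T cells had 384, 567, 571 and 630.4. Lag3 rose by 3.12 and Tigit, which competes with activating receptors for shared ligands, by 2.13. Among those lower in the tumor, Klrg1 fell by 2.16, Klra9 by 1.65 and Cd160 by 1.52 on the log2 scale.

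Of 16 activating receptors and adaptors tested, 2 rose and 8 fell, with a median of -0.46. Klrc2, an activating partner of CD94 that binds MHC class Ib, had 41.6, 59.5, 47.2 and 53.8 CPM in tumors and 433, 484, 364 and 567 in spleens. The groups lay far apart (log2 fold change -2.81, adjusted p = 9.9e-12, lower in 4 of 4 conditions). The activating Ly49 receptors Klra4 and Klra8 fell by 2.27 and 2.08, and Klrk1, which encodes NKG2D, by 0.60. Crtam, an adhesion receptor of activated killer cells, rose by 1.52, with 38.1, 35.0, 23.6 and 20.7 in tumors and 8.48, 13.0, 14.0 and 18.2 in spleens. The other gene called higher was Klrd1, whose CPM were not higher in 4 of 4 conditions. Genes of MHC class I, the ligands of many of these receptors, were tested in 13 cases. Of these 5 rose and 0 fell, with a median of 0.34. B2m rose by 0.88 (adjusted p = 4.36e-08).

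Genes of NK cell maturation moved both ways, more of them down. Of 15 maturation genes tested, 4 rose and 9 fell (median -2.16). The list mixes genes of early and late stages, so that these counts do not measure how mature the cells were. S1pr5, the receptor by which mature NK cells leave tissue toward blood, had 6.24, 3.68, 1.65 and 5.41 CPM in tumors and 385, 337, 276 and 429 in spleens. Its level was close to 0 in every tumor library (log2 fold change -5.99, adjusted p = 9.69e-14, lower in 4 of 4 conditions). Itgam, which encodes CD11b, had 18.7, 18.4, 28.0 and 23.6 in tumors and 263, 220.4, 234 and 222 in spleens (log2 fold change -3.00, adjusted p = 9.76e-11). Cma1 fell by 3.98, Cd7 by 3.23, Cx3cr1 by 2.79 and Zeb2, a transcription factor of terminal maturation, by 2.77. Higher in the tumor were Thy1, by 2.41, and Emb, by 2.02, both of which mark less mature NK cells. Il7r, also a gene of the less mature stage, went the other way (log2 fold change -2.31). Cd27, another marker of that stage, did not pass (adjusted p = 0.339), with 52.7, 58.9, 66.4 and 69.7 in tumors and 73.5, 95.1, 101 and 105 in spleens.

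Of 21 homing and adhesion genes tested, 6 rose and 12 fell (median -1.04). Cd69, which holds lymphocytes in tissue by removing S1pr1 from their surface, had 320.2, 386, 317 and 419 CPM in tumors and 50.9, 64.8, 49.0 and 40.0 in spleens. The groups did not overlap (log2 fold change 3.20, adjusted p = 3.71e-11). Cxcr4 rose by 2.94 and Itga1, the collagen-binding integrin CD49a, by 2.88. S1pr1 fell by 3.33, Itga4 by 2.31 and Cxcr3 by 2.11.

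Of 20 NK transcription factors tested, 8 rose and 8 fell (median -0.38). Irf8, which NK cells need for their response to virus, had 1185, 1308, 1397 and 1541 CPM in tumors and 435, 337, 378 and 403 in spleens (log2 fold change 2.18, adjusted p = 2.04e-11). Every tumor was above every spleen. Bhlhe40 rose by 2.63. Tbx21, which encodes T-bet, fell by 1.04. Klf2, a factor of quiescence and recirculation, had a log2 fold change of -1.64, and Eomes one of -0.41 (adjusted p = 0.00944).

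Secreted factors shifted too. Of 15 cytokines and chemokines tested, 12 rose and 2 fell (median 1.99). Xcl1, which attracts cross-presenting dendritic cells, had 1814, 1682, 1199.7 and 1113 CPM in tumors and 201, 324, 413 and 182 in spleens. Tumors were above spleens throughout, and both *Aire*+/+ tumors above both *Aire*-/- tumors (log2 fold change 2.78, adjusted p = 3.84e-10). Tgfb1 rose by 2.30, Vegfa by 4.53, Ccl4 by 1.14 and Ifng by 1.30. Ifng had 288, 98.1, 138 and 143 in tumors and 102, 90.8, 70.0 and 90.9 in spleens, with *Aire*+/+ isotype highest. Ccl5, a chemokine stored by mature NK cells, had 2554, 1999, 3636 and 3394 in tumors and 18129, 14776, 16270.5 and 17690.5 in spleens and fell by 2.18 on the log2 scale (adjusted p = 1.62e-11).

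Of 29 cytokine receptor and JAK-STAT genes tested, 12 rose and 8 fell (median 0.39). Il2ra, the high-affinity chain of the IL-2 receptor, had 58.2, 49.1, 32.4 and 58.6 CPM in tumors and 0, 4.32, 0 and 0 in spleens (log2 fold change 6.02, adjusted p = 1.04e-07). It was seen in every tumor and in 1 spleen. Cish, an inhibitor of IL-15 signaling that this signaling induces, had 145, 151, 189 and 153 in tumors and 5.65, 13.0, 14.0 and 18.2 in spleens (log2 fold change 4.07, adjusted p = 2.75e-10). Il7r fell by 2.31 and Il18r1 by 1.35. Of the 6 tested costimulatory receptors of the TNF receptor family, 4 rose and 0 fell (median 1.13). Tnfrsf9, which encodes 4-1BB, had 1283, 856, 1019 and 1104 in tumors and 76.3, 159.9, 63.0 and 83.6 in spleens (log2 fold change 3.91, adjusted p = 1.98e-11), and was as abundant as in the CD8 T cells, at 1586, 954, 1043 and 858.

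Most interferon-response genes were higher in the tumor. Of 30 tested, 24 rose and 2 fell (median 2.02), and together they took 0.403%, 0.520%, 0.507% and 0.444% of the UMIs of tumor NK cells and 0.142%, 0.165%, 0.194% and 0.179% of those of splenic NK cells. Isg15 had 209, 396, 377 and 316 CPM in tumors and 19.8, 34.6, 21.0 and 54.5 in spleens (log2 fold change 3.70, adjusted p = 9.26e-11). The groups lay apart, and *Aire*+/+ isotype was lowest among tumors. Ifitm1, of the family that blocks entry of enveloped viruses, had 486, 529, 357 and 369 in tumors and 0 in all spleens, at least 160.4-fold higher (adjusted p = 9.9e-12). It was found in 16, 19, 22 and 24 NK cells. Without barcodes that held 5 or more UMIs of a part of other cell types' markers, its last tumor value went from 369 to 219. Isg20 rose by 6.36. Ifitm2 rose by 9.63, a value that rests on 1 splenic UMI. Irf1 fell by 0.41 and Ifi47 by 0.48. Macrophages held more of these genes than NK cells, with 1.73%, 1.77%, 2.46% and 2.25% of their UMIs. The part of RNA from other cells in these values was not tested.

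Glycolysis and hypoxia genes were also higher. Of 24 tested, 21 rose and 0 fell (median 1.83). All 25 genes of the list together took 1.29%, 1.02%, 1.10% and 1.10% of UMIs in tumors and 0.366%, 0.384%, 0.409% and 0.384% in spleens. The tissues did not overlap, and *Aire*+/+ isotype was highest among the tumors. Ldha, which encodes the subunit that turns pyruvate to lactate, had 1774, 1409, 1424 and 1527 CPM in tumors and 373, 411, 388 and 345 in spleens (log2 fold change 2.40, adjusted p = 5.48e-12). Pgk1 rose by 2.41, Aldoa by 2.27, the lactate exporter Slc16a3 by 4.64 and the hypoxia-induced lipid droplet gene Hilpda by 4.60.

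Immediate early genes, which are induced within minutes of stimulation and also by cell dissociation, rose in 19 of 21 cases and fell in 0 (median 2.13). Nr4a1 had 226, 383, 379 and 523 CPM in tumors and 31.1, 43.2, 21.0 and 14.5 in spleens (log2 fold change 4.12, adjusted p = 1.01e-10). Fosb was at 0 in all spleens and at 66.5, 96.9, 62.0 and 107 in tumors, at least 33.4-fold higher. Macrophages of these tumors held more Fosb, at 256, 319, 264 and 382. Of 11 heat shock genes, which enzymatic dissociation also induces, 7 rose and 0 fell (median 0.78). Hspa1a rose by 4.36 on the log2 scale. What the dissociation added cannot be told apart from tissue.

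Of 26 cell cycle genes, 17 rose and 1 fell (median 1.07), but only 6 of those called higher had more CPM in 4 of 4 conditions. Summed, the list took 0.335%, 0.412%, 0.346% and 0.326% of UMIs in tumors and 0.319%, 0.293%, 0.486% and 0.434% in spleens, so that both *Aire*-/- spleens exceeded their tumors. Of 15 survival genes, 7 rose and 1 fell (median 0.35). Bcl2a1d, a guard against apoptosis, rose by 4.83, the pro-apoptotic Bcl2l11 by 2.88, and the pro-apoptotic Bbc3 fell by 1.22.

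Ranked by fitted log2 fold change, the 10 genes most increased in the tumor were Gzmd, Gzme, Gzmf, Ifitm1, Cxcl10, Rgs16, AA467197, Il1b, Gzmc and Gzmg. All but Gzmc had 0 UMIs in the spleens, where only a lower bound is measured and the rank rests on the fit. Rgs16, a brake on chemokine receptor signaling, had 319.5, 218, 180.5 and 244 CPM in tumors and 0 in spleens, at least 90.9-fold higher. It was near absent from macrophages, at 7.03, 1.59, 5.80 and 9.57. Il1b had 257, 152, 54.9 and 102 in the NK cells and 3852, 3945, 4330.0 and 4785 in the macrophages, and was found in 8, 11, 7 and 6 NK cells. Without barcodes that held 5 or more UMIs of a part of other cell types' markers, it had 271, 111, 9.61 and 79.6. The *Aire*-/- isotype value of Il1b thus rested mostly on such barcodes. How much of the rest came from other cells was not tested. The 10 genes most decreased were Fcer2a, Cr2, G0s2, Ms4a1, Ralgps2, Ccr10, Bank1, Cd22, Cd79a and Cd79b, most of them B cell genes. B cell markers had 45, 52, 32 and 173 UMIs in the splenic NK cells, and 2, 1, 1 and 4 splenic barcodes held 5 or more. Without the barcodes with other cell types' markers, all 10 increased genes were still called, but only 2 of the decreased ones, G0s2 and Ccr10, and the rest were no longer tested. Ccr10 had 7, 11, 0 and 3 UMIs in the spleens, in 1, 1, 0 and 1 barcodes, so that 3 cells carried it.

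Set beside the CD8 T cells of the same 4 libraries, the genes higher in NK cells were led by receptors and adaptors of the NK lineage. Of 6149 genes with enough UMIs, 142 (2.31%) were more than 2-fold higher in all 4 libraries and 162 (2.63%) lower. Both kinds of cells were chosen on CD3 and CD8 genes and on Ncr1, Klrb1c and Klre1, of which the CD8 T cells had 0 UMIs. Genes that go with T cell or NK cell identity follow from that choice in both directions, so that no test was made. The genes used to choose the cells were left out of these counts and ranks. Tyrobp, which encodes the signaling adaptor DAP12, had 2013, 1821, 2324 and 2310.2 CPM in NK cells and 54.9, 18.1, 29.6 and 52.3 in CD8 T cells, log2 ratios of 5.20, 6.65, 6.30 and 5.47. The next genes by their least ratio were Klrb1f, Car2, Klrb1a, Clnk, Klrb1b, Klra9, Klra8, Gzmc and Klra7. Car2, a carbonic anhydrase, had 284, 343, 387 and 383 in NK cells and 7.49, 8.52, 12.2 and 6.25 in CD8 T cells. Gzmc had log2 ratios of 4.69, 4.75, 5.44 and 4.22. Gzmf had 2497, 828, 676 and 1037 in CD8 T cells, log2 ratios of -1.83, -1.64, -1.96 and -0.16, so that it was more than 2-fold lower in NK cells in 3 of the 4 libraries.

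The genes lower in NK cells in all 4 libraries were led by Cd6, Tnfrsf4, Cd5, Gm8369, Bcl11b, Penk, Csf1, Sdcbp2, Themis and Gpm6b. Tnfrsf4, which encodes the costimulatory receptor OX40, had 0.693, 7.97, 0 and 0.955 CPM in NK cells and 847, 704, 538 and 271 in CD8 T cells. Csf1, a growth factor of macrophages, had 0.693, 1.23, 1.65 and 5.73 against 114, 137, 162 and 185. Among 17 cytotoxic genes, 8 were higher and 1 lower (median log2 ratio 1.14 against -0.01 for all genes). Activating receptors gave 8 and 1 of 16 (median 1.82), inhibitory receptors 7 and 4 of 16 (0.27). Cytokines and chemokines gave 2 and 5 of 16 (-1.25), costimulatory receptors 0 and 4 of 7 (-1.45), and interferon-response genes 0 and 6 of 30 (-0.69).

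Between genotypes, the tumor NK cells differed by more than 2-fold in few genes. With anti-PD1, of 6881 genes with at least 50 UMIs over the pair of libraries, 61 (0.886%) were more than 2-fold higher and 72 (1.05%) lower in *Aire*-/- NK cells. With isotype, 83 (1.44%) were higher and 81 (1.41%) lower of 5764. Median log2 ratios over all genes were -0.01 and 0.01. The 2 pairs share no library. Past 2-fold in both were 5 higher genes (0.0869% of 5751) and 8 lower (0.139%). The 5 made up 16.1% of the genes higher with anti-PD1 and 6.10% of those higher with isotype, counted over genes measured in both, and the 8 made up 22.9% and 10.3%. Each side was 1 library of pooled tumors, and no difference was tested. The intervals of gene ratios given below cover counting error only and take the UMIs of a cell as independent.

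The higher genes were BC002163, Dhrs3, Egr1, Dynlt1b and Lef1. BC002163 had 11.1, 9.81, 99.3 and 67.2 CPM in tumor NK cells. Both *Aire*-/- libraries were far above both *Aire*+/+ libraries, with log2 ratios of 2.78 (95% interval 2.04 to 3.61) with anti-PD1 and 3.16 (2.42 to 4.0) with isotype. It was 14.1, 30.3, 97.99 and 113 in splenic NK cells, 16.2, 8.52, 102 and 89.5 in tumor CD8 T cells and 10.6, 9.83, 87.3 and 75.1 in macrophages, so that genotype split it in the same way in all of these. BC002163 is a near copy of another gene, all of its UMIs lay in 1 of its 2 table entries, and how reads were shared between copies cannot be seen. Dynlt1b, a dynein light chain gene, has close copies too, and its values are uncertain for the same reason. It had 27.0, 28.2, 54.9 and 82.5 in tumor NK cells (log2 ratios 1.55 and 1.02) and 28.3, 43.2, 115 and 134 in splenic ones, again by genotype. Dhrs3, an enzyme that reduces retinaldehyde, had 8.32, 10.4, 23.6 and 27.4 in tumor NK cells, log2 ratios of 1.39 (0.63 to 2.24) and 1.504 (0.56 to 2.56). In spleens it had 17.0, 43.2, 21.0 and 40.0, with no order by genotype. Lef1, a partner of beta-catenin found in early lymphocytes, had 12.5, 17.8, 25.2 and 39.5, log2 ratios of 1.15 (0.56 to 1.79) and 1.02 (0.20 to 1.89). Splenic values of Lef1 were 79.2, 56.2, 56.0 and 79.97.

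The 8 lower genes were Fscn1, Ifi205, Spi1, Ccr1, Cfp, Rasgef1b, Hist1h1d and Ifi30. Several are genes of myeloid cells and stood in few barcodes. Spi1, which encodes the myeloid factor PU.1, had 30.5, 23.9, 12.6 and 7.32 CPM in NK cells and 669.5, 626, 619 and 497 in macrophages. It was found in 6 and 5 NK barcodes of the anti-PD1 pair and 6 and 3 of the isotype pair. Cfp, which encodes properdin, had 33.3, 56.4, 14.8 and 2.87 in NK cells, and 52 of the 92 UMIs of the *Aire*+/+ anti-PD1 library came from 1 barcode. Ccr1 had 29.8, 27.6, 8.78 and 11.5, in 3, 3, 2 and 2 barcodes, and Ifi205 had 30.5, 50.3, 6.58 and 11.8, in 3, 3, 1 and 3. Fscn1, a dendritic cell gene, had 60.3, 121, 0 and 23.6. Single barcodes held 86 of 87 UMIs in *Aire*+/+ isotype, 126 of 198 in *Aire*+/+ anti-PD1 and 74 of 74 in *Aire*-/- anti-PD1, and without them 0 and 1 UMIs were left in the isotype pair, too few for a ratio. Ifi30, Rasgef1b and Hist1h1d were found in more barcodes, but in the *Aire*-/- isotype library 1 barcode held 56 of the 104 UMIs of Ifi30 and 10 of the 19 of Hist1h1d. Without barcodes with other cell types' markers the log2 ratio of Hist1h1d with isotype was -0.95. Ifi30 had 163, 136, 57.1 and 67.5 in 42, 43, 26 and 61 barcodes, with log2 ratios of -1.01 and -1.51, the former -0.96 without the fullest barcodes and -0.60 without barcodes with other cell types' markers. Rasgef1b had 34.0, 35.0, 10.4 and 15.9 in 18, 23, 14 and 31 barcodes, with log2 ratios of -1.13 (-1.71 to -0.56) and -1.70 (-2.55 to -0.91). Without the barcode that held most UMIs of each gene in each library, 4 of the 5 higher and 6 of the 8 lower genes stayed past 2-fold in both pairs.

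**Figure D3:**
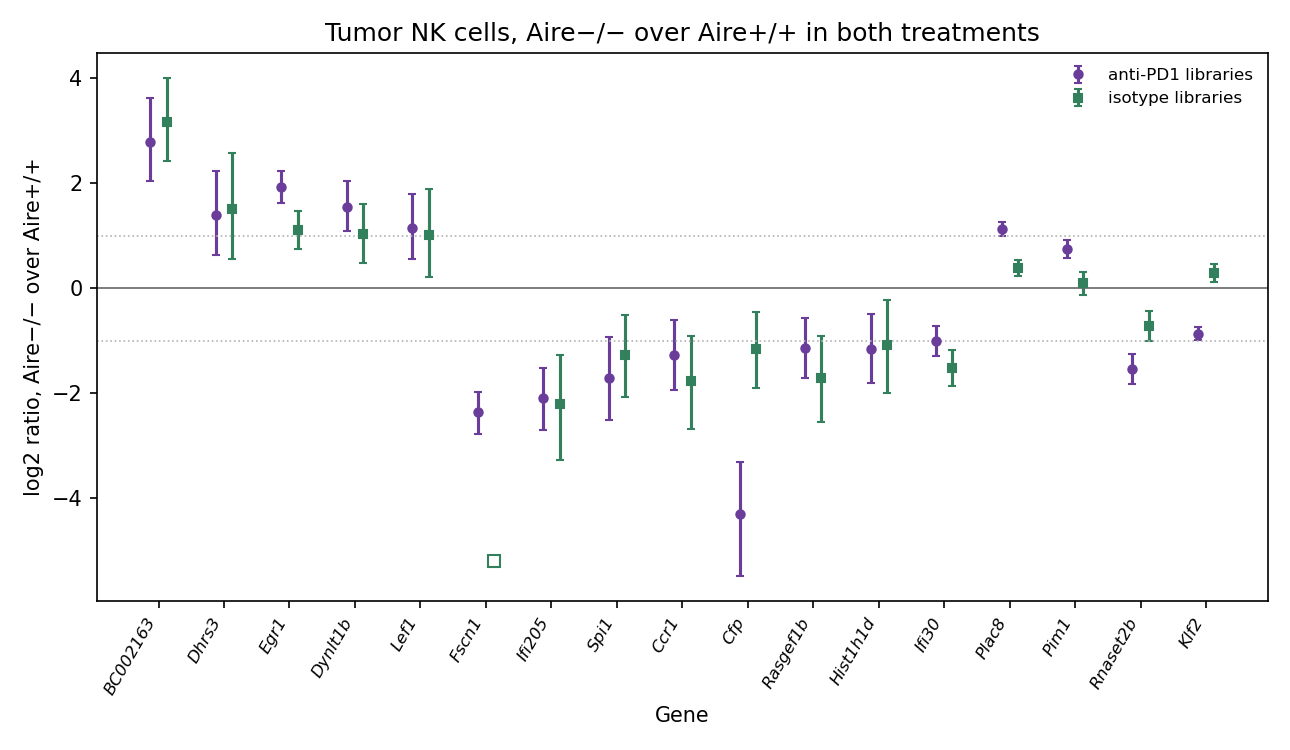
Log2 ratios of CPM of *Aire*-/- over *Aire*+/+ tumor NK cells with isotype and with anti-PD1, for the genes past 2-fold in both pairs and the genes the study names. BC002163 lies highest in both pairs, at 3.16 and 2.78, while the open symbol of Fscn1 marks a value at the floor of 3 UMIs.

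The study named 6 genes for its NK cells, Egr1, Plac8, Pim1, BC002163, Rnaset2b and Klf2, and chose them on these libraries, so that their direction with anti-PD1 is no independent evidence. Of the 6, 3 were more than 2-fold higher and 1 lower with anti-PD1 (median log2 ratio 0.94), and 2 were higher and 0 lower with isotype (median 0.34). Egr1, an immediate early transcription factor, had 61.0, 60.7, 131 and 229 CPM. Both *Aire*-/- libraries were higher, with log2 ratios of 1.91 (1.61 to 2.23) and 1.10 (0.74 to 1.47), the latter 0.88 without the fullest barcode of each library. In splenic NK cells it had 2.83, 0, 161 and 3.63, high in 1 library. Plac8 had 410.3, 345, 537 and 753, log2 ratios of 1.13 (0.99 to 1.26) with anti-PD1 and 0.39 (0.24 to 0.54) with isotype. In macrophages it had 764, 782, 1449.7 and 2027, ordered by genotype as well. Pim1, a kinase induced by cytokines, had 219, 218, 233 and 366, so that only the *Aire*-/- anti-PD1 library stood higher (log2 ratios 0.75 and 0.09). The difference between the pairs was not tested.

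Rnaset2b had 161, 161, 98.2 and 55.4 in tumor NK cells, lower in both *Aire*-/- libraries, with log2 ratios of -1.54 (-1.82 to -1.25) and -0.72 (-1.01 to -0.43). Splenic NK cells had 305, 324, 115 and 54.5, the same order. It too has a near copy, all of its UMIs lay in 1 of 2 table entries, and the value is uncertain for that reason. Rnaset2b and Dynlt1b both lie on chromosome 17 (GRCm38), with starts at positions 6978860 and 6429530. Whether their differences by genotype are linked was not tested. Klf2 had 320.2, 587, 391 and 322, highest in *Aire*+/+ anti-PD1, with log2 ratios of -0.87 with anti-PD1 and 0.29 with isotype.

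At the ends of the anti-PD1 comparison stood genes held by few cells. The highest ratios were those of Ccl6 (log2 6.52), Csf2 (5.92), Hdc (5.28), a gene that the counts list by an Ensembl identifier (4.08) and Irg1 (3.99). The 4.08 is a lower bound, as the *Aire*+/+ library had 0 UMIs, and 98 of its 98 UMIs lay in 1 barcode. Of the 177 UMIs of Ccl6 in *Aire*-/- anti-PD1 NK cells, 171 lay in 1 barcode, as did 71 of the 75 of Hdc, a basophil and mast cell enzyme. Csf2 and Irg1 were each found in 8 barcodes there, with 72 of 117 and 55 of 92 UMIs in the fullest, and kept log2 ratios of 2.96 and 3.26 without the fullest barcodes. The lowest were Hspb1 (-5.68, 80 of 80 UMIs in 1 barcode), Cfp (-4.30), Hist1h2ak (-2.75), Tbc1d4 (-2.37) and Fscn1 (-2.37). Of these, Hist1h2ak was -0.46 without the fullest barcodes, which held 37 of its 42 UMIs in the *Aire*+/+ library. With at least 2 UMIs of the NK genes required, Tbc1d4 was 2.42 and Fscn1 5.26. At least 50% of a gene's UMIs lay in 1 barcode for 13 of the 61 higher and 14 of the 72 lower genes, and 46 and 57 stayed past 2-fold without it. With isotype, where this held for 1 of 83 and 14 of 81, the highest were Prss2 (3.72), Cenpf (3.17), BC002163 (3.16), Tob1 (2.13) and Ifit1 (2.10). The lowest were Cxcl9 (-5.49, 70 of 71 UMIs in 1 barcode), Fscn1 (-5.20, 86 of 87), Ccl1 (-4.62, 84 of 117), Apoe (-4.51, 51 of 54) and Gzmg (-4.38).

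Among the gene lists, interferon-response genes leaned up in *Aire*-/- NK cells with isotype. Of 30, 27 had ratios above 0 and 5 were more than 2-fold higher, with a median log2 ratio of 0.58 against 0.01 for all genes. Of all 5764 genes, 2916 were above 0 and 83 (1.44%) more than 2-fold higher. The interferon-response list had medians of 0.02 in CD8 T cells and 0.69 in macrophages. With anti-PD1 its median in NK cells was -0.12, with 10 of 30 above 0 against 3290 of all 6881 genes. Cell cycle genes were lower in *Aire*-/- NK cells with anti-PD1 in 24 of 24 cases, 3 of them past 2-fold (median -0.50), and had a median of -0.04 with isotype. Of all 6881 genes with anti-PD1, 3591 were below 0 and 72 (1.05%) more than 2-fold lower. The cell cycle median with anti-PD1 became 0.02 without cycling barcodes. Receptors of cytokines and JAK-STAT genes had a median of 0.41 with isotype, 21 of 25 above 0 and 0 past 2-fold. With anti-PD1 their median was 0.08, with 18 of 28 above 0. Cytotoxic genes had medians of 0.28 with anti-PD1 and 0.06 with isotype.

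Between treatments, too, tumor NK cells differed by more than 2-fold in few genes. In *Aire*+/+ mice, of 5647 genes, 74 (1.31%) were more than 2-fold higher and 26 (0.46%) lower with anti-PD1 than with isotype. In *Aire*-/- mice 82 (1.19%) were higher and 24 (0.348%) lower of 6900. Median log2 ratios over all genes were 0.02 and 0.01. Past 2-fold in both were 5 higher genes (0.0891% of 5614) and 1 lower (0.0178%). The 5 made up 7.46% and 11.1% of the genes higher in *Aire*+/+ and in *Aire*-/- mice, and the 1 made up 4.35% and 8.33%. Again each side was 1 library and nothing was tested.

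The higher genes were Ccr7, Fabp5, Net1, Hist2h2bb and Fscn1, and the lower gene was Serpine2, an inhibitor of serine proteases. With at least 2 UMIs of the NK genes required, Fabp5, Net1 and Fscn1 turned to -0.18, -0.40 and -6.62 in *Aire*+/+ mice, and without barcodes over 2 times the median depth Fabp5 was -0.22 and Ccr7 -0.32 in *Aire*-/- mice. Ccr7, the receptor for lymph node entry, had 18.0, 108, 28.0 and 96.8 CPM in NK cells, higher with anti-PD1 in both genotypes. The fullest barcodes held 100 of the 176 UMIs of the *Aire*+/+ anti-PD1 library and 113 of the 304 of the *Aire*-/- one. The log2 ratios of 2.58 and 1.79 became 0.54 and -0.60 without barcodes with other cell types' markers, of which Ccr7 is one for dendritic cells. Serpine2 had 59.6, 17.2, 53.8 and 23.2 (log2 ratios -1.80 and -1.21), and 54 of its 86 UMIs in *Aire*+/+ isotype lay in 1 barcode. Without the fullest barcodes, 1 of the 5 higher genes and 0 of the 1 lower gene stayed past 2-fold in both genotypes.

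In *Aire*+/+ mice the highest ratios were those of Hspb1 (4.56, 80 of 80 UMIs in 1 barcode), Hist2h2bb (3.35), Tbc1d4 (3.03), Ccr7 (2.58) and Hist1h2ae (2.55). The lowest were Apoe (-4.35), Wfdc17 (-2.84), Ccl1 (-2.80), Gzmg (-2.67) and Cxcl9 (-2.24). Some of these turned. With at least 2 UMIs of the NK genes required Tbc1d4 was -1.40. Without barcodes over 2 times the median depth Hist1h2ae was -0.55 and Ccl1 0.26, and without cycling barcodes Hist1h2ae was -0.69. In *Aire*-/- mice the highest were Csf2 (6.09), Ccl6 (5.10), Cxcl9 (4.62, 84 of 85 UMIs in 1 barcode), a gene that the counts list by an Ensembl identifier (4.25, 98 of 98) and Hdc (3.86). Ccl6 and the gene at 4.25 had 0 UMIs with isotype, so that their values are lower bounds and their ranks rest on the floor. The lowest were Cenpf (-2.48), TrnS2 (-2.40), Cdc20 (-1.85), Ccnb1 (-1.83) and Ube2c (-1.62). With at least 2 UMIs of the NK genes required Hdc was -0.36, and without cycling barcodes Cdc20 was 1.47. Cenpf, Cdc20, Ccnb1 and Ube2c act in mitosis, but of the 26 genes of the cell cycle list 2 were higher and 5 lower, with 12 above and 14 below 0 (median -0.12). Cenpf had 4.16, 19.6, 37.3 and 6.69 CPM, and its high value was in the *Aire*-/- isotype library. The fullest barcodes held at least 50% of a gene's UMIs for 9 of 74 and 7 of 26 genes in *Aire*+/+ and for 18 of 82 and 1 of 24 in *Aire*-/- mice.

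Interferon-response genes leaned up with anti-PD1 in *Aire*+/+ mice, where 25 of 30 were above 0 and 4 past 2-fold (median log2 ratio 0.52, with -0.13 in CD8 T cells and 0.02 in macrophages). Of all 5647 genes there, 3031 were above and 2616 below 0, and 74 (1.31%) were more than 2-fold higher. In *Aire*-/- mice the interferon-response median was -0.18. The lowest summed level was thus that of the *Aire*+/+ isotype library, at 0.403% of UMIs, which was on one side of both comparisons that leaned up. Glycolysis and hypoxia genes leaned down with anti-PD1 in *Aire*+/+ mice, with 20 of 24 below 0, 0 past 2-fold and a median of -0.38, beside -0.42 in CD8 T cells and -0.09 in macrophages. In *Aire*-/- mice their median was -0.03. Immediate early genes leaned up in *Aire*-/- mice, with 18 of 21 above 0, 2 past 2-fold and a median of 0.56, beside 0.50 in CD8 T cells and -0.03 in macrophages. Of all 6900 genes there, 3607 were above 0 and 82 (1.19%) more than 2-fold higher. In *Aire*+/+ mice the median of the immediate early genes was 0.27. Whether these shifts differ between genotypes was not tested.

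A minority of the tumor NK cells were cycling. At least 3 UMIs of Mki67, Top2a, Stmn1, Rrm2, Birc5, Cdk1 and Ube2c were found in 20.4%, 20.3%, 15.8% and 15.2% of the cells. Cells past this bound were deeper, with medians of 25146, 26128, 25344 and 24556 UMIs against 7911.5, 6819.5, 7585 and 7984 in the others. With every cell thinned to 3000 UMIs, 11.7% (6.17 to 19.5), 10.2% (5.52 to 16.7), 6.85% (3.33 to 12.2) and 7.17% (4.23 to 11.2) were past it. The *Aire*+/+ shares were higher than the *Aire*-/- ones, with intervals that overlapped. In spleens 5.88%, 2%, 5.45% and 1.82% were past the bound before thinning. Thinning left out splenic NK cells with fewer than 3000 UMIs, which left 61, 43, 51 and 49. Of these, 0%, 2.33%, 3.92% and 2.04% were past it.

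Some tumor NK cells carried Itga1, the integrin that marks tissue-resident NK cells and ILC1. After thinning to 3000 UMIs, 12.6%, 6.25%, 8.90% and 5.49% of tumor NK cells had a UMI of Itga1, against 0%, 0%, 1.96% and 4.08% in the spleens and 1.15%, 0.494%, 1.05% and 2.16% in macrophages. Without thinning, 33.0%, 24.2%, 28.1% and 26.2% had one. Itga1 was thus found in tumor NK cells above the level of macrophages in all 4 libraries. Beside CD8 T cells of the same tumors, its log2 ratios of CPM without thinning were 1.49, 0.79, 0.55 and -0.02. In *Aire*-/- anti-PD1 tumors the CD8 T cells thus held as much Itga1 as the NK cells. Of 1227 genes with enough thinned UMIs, 1 (0.0815%) was more than 2-fold higher in all 4 libraries in the cells with Itga1, and 4 (0.326%) were lower. The higher gene was Lgals3, which encodes a galectin, with log2 ratios of 1.96, 1.39, 1.35 and 2.005. The lower ones were the chemokine genes Cxcl10, Ccl4 and Ccl3, and Mrps14. Ccl3 had 0 UMIs in the cells with Itga1 in all 4 libraries and 154, 102, 146 and 260 in the others. Of 14 cytotoxic genes, 0 were past 2-fold in all 4 libraries, and their median log2 ratio was -0.44 against -0.09 for all genes. Of these, 0 were above and 4 below 0 in all 4 libraries, namely Gzma, Gzmb, Nkg7 and Srgn, against 65 above and 136 below among all 1227 genes. Gzmc, at 0.78, 0.46, 0.86 and -0.07, and Gzmd, at 1.10, 1.11, 1.81 and -3.23, were above 0 in 3 of 4. Eomes was found in 61.5%, 50%, 38.5% and 38.5% of cells with Itga1 and in 48.9%, 40.8%, 49.6% and 50.9% of those without. Cells with Itga1 numbered only 13, 8, 13 and 13, and before thinning they were deeper, with medians of 15135, 13454.5, 16209 and 9546 against 9072.5, 8407, 8574 and 8959 UMIs.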

How the data were processed

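The authors deposited raw UMI counts per gene and barcode for each 10x Genomics library, made on the GRCm38 genome, and these counts were used as given. The paper describes both 3′ and 5′ libraries. Symbols were read from the start of each entry's name, and entries of one symbol were summed, which gave 24495 symbols from 25127 entries. Doublets were not removed. The members and gene lists were chosen with earlier results of these data known. UMIs were summed over the NK cells of a library and divided by all their UMIs, per 1000000 UMIs (CPM). Condition ratios used genes with at least 50 UMIs over the pair, a floor of 3 UMIs where one side had 0, and exact conditional 95% intervals, and were called past 2-fold. Shares have exact Clopper-Pearson intervals. Tumor and splenic NK cells were compared with edgeR 4.0.16 (limma 3.58.1) in R 4.3.3, with filterByExpr, TMM factors, the quasi-likelihood test and Benjamini-Hochberg adjusted p under 0.05. DESeq2 1.42.0 served as an alternative, and Python 3.11.15 with numpy 2.4.6, scipy 1.17.1, pandas 2.3.3 and matplotlib 3.10.9 did the rest.

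The named genes are the 4 markers, the 5 highest and 5 lowest ratios of each condition comparison, the genes past 2-fold in both pairs, the 10 largest fold changes each way between tissues, the 10 each way beside CD8 T cells and in the Itga1 split, members of the 17 gene lists, and the 6 genes of the study. NK cells held 1442765, 1630377, 1822924 and 3140486 UMIs in the tumors and 353683, 231392, 285731 and 275119 in the spleens. A gene at 0 in the smallest tumor sum could still stand at 2.08 CPM by the floor of 3. Alternatives were 5 for the share, 7 for the condition comparisons and others for the tissue test, and 2 more were chosen after seeing the data. The first left out barcodes with 5 or more UMIs of a part of other cell types' markers. The second left out each gene's fullest barcode per library.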

Additional observations from a re-analysis of the deposited data

Results flagged for a closer look

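Of 24 groups of 4 libraries, 5 held a value far from the other 3, where chance gives about 1 in 20. In tumor NK cells Eomes had 188.9 CPM in *Aire*+/+ anti-PD1 against 210.7 to 213.0 in the others, and Gzmg had 320.2 in *Aire*+/+ isotype against 15.4 to 54.5. In splenic NK cells of *Aire*-/- anti-PD1 mice the B cell genes Ms4a1, Bank1 and Cd79a had 119.9, 98.1 and 301.7 against 21.0 to 25.9, 24.5 to 31.1 and 49.0 to 86.4. Without barcodes that held 5 or more UMIs of a part of other cell types' markers, the UMIs of these 3 genes in that library went from 33, 27 and 83 to 1, 2 and 1. Nearly all of them thus lay in such barcodes. This alternative was chosen after seeing the data.

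Between genotypes, 9 genes passed 2-fold in opposite directions with anti-PD1 and with isotype, and the difference was not tested. The log2 ratios of *Aire*-/- over *Aire*+/+ with anti-PD1 and then isotype were 1.87 and -4.62 for Ccl1, 1.38 and -5.49 for Cxcl9, 1.58 and -1.53 for Gadd45g, 1.80 and -2.01 for Gzmf and 1.57 and -1.09 for Jup. They were -1.05 and 1.08 for Ccnb2, -1.55 and 3.17 for Cenpf, -1.76 and 1.51 for Hes1 and -1.33 and 1.25 for Ifih1. Of the 9, 7 stayed past 2-fold in both pairs without each gene's fullest barcode.

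Between treatments another 9 did so, with log2 ratios of anti-PD1 over isotype in *Aire*+/+ and then *Aire*-/- mice of 1.11 and -1.02 for Ccnb2, 1.65 and -1.05 for Phf11c, -1.11 and 1.32 for Aif1l, -2.80 and 3.70 for Ccl1 and -2.24 and 4.62 for Cxcl9. They were -1.54 and 1.57 for Gadd45g, -1.40 and 2.42 for Gzmf, -2.67 and 1.83 for Gzmg and -1.18 and 1.03 for Nudcd1. This difference was not tested either, and 5 of the 9 stayed without the fullest barcodes.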

How the results depend on the processing

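Share ratios stayed between 1.44 and 2.30 under 18 of 20 alternatives. Without barcodes of at least 5 UMIs of C1qa, C1qb and C1qc in the total, the genotype ratio with anti-PD1 was 1.41 and the treatment ratio in *Aire*-/- mice 1.12. Genes past 2-fold numbered 133, 164, 100 and 106 for *Aire*-/- over *Aire*+/+ with anti-PD1, with isotype, and for anti-PD1 over isotype in *Aire*+/+ and in *Aire*-/- mice, and were within 1.5 times of this in 28 of 36 alternatives. The genes were often not the same, and without barcodes over 2 times the median depth 41, 44, 38 and 15 of them were still past 2-fold. With at least 100 UMIs they were 55, 59, 41 and 38. As means over cells they were 241 for the first and 180 for the third. Without barcodes over 2 times the median depth they were 108 for the second and 50 for the fourth. The tissue test called 3037 genes, 1973 with DESeq2, 1459 after thinning and 2357 to 2710 with 1 condition left out. With DESeq2, Cr2 (log2 -5.56, adjusted p = 0.251) and Ccr10 (-6.56, 0.160) no longer passed. The cause was not tested.

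Of 731 values of named genes, 580 stayed within their intervals and 18 past 2-fold changed sign. Alternatives that left 3 UMIs or fewer on both sides were not counted, as for Fscn1 with isotype and Cxcl9 between treatments without the fullest barcodes. For *Aire*-/- over *Aire*+/+ with anti-PD1, with at least 2 gate UMIs Tbc1d4 was 2.42 and Fscn1 5.26, without other cell types' barcodes Tbc1d4 was 0.85, and without the fullest barcode Hdc was -0.53. For anti-PD1 over isotype in *Aire*+/+ mice, with at least 2 gate UMIs Tbc1d4 was -1.40, Fabp5 -0.18, Net1 -0.40 and Fscn1 -6.62, without other types Fabp5 -0.13 and Net1 -0.55, without deep barcodes Hist1h2ae -0.55 and Ccl1 0.26, and without cycling barcodes Hist1h2ae -0.69. In *Aire*-/- mice Hdc was -0.36 with at least 2 gate UMIs, Cdc20 1.47 without cycling barcodes, Ccr7 -0.32 and Fabp5 -0.22 without deep barcodes and Ccr7 -0.60 without other types. List medians of at least 0.25 were followed for a change of sign. The cell cycle median became 0.0176 for genotype with anti-PD1 without deep and 0.0226 without cycling barcodes, and -0.21 for treatment in *Aire*+/+ mice without deep ones. The cause was not tested.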
